A study of Homo sapiens with 3 samples.

Results

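Genes for the enzymes that place and remove methyl groups on histone lysines were examined in CAMA1. This established line of human breast cancer cells is described by its submitters as ER+ and FGFR1-amplified. The set was a list of 45 gene symbols, 30 on the writer side and 15 erasers, and all 45 were found by symbol among the 26485 entries of the count table. The cells, at a passage below 10, had been kept for 48 h in estradiol-deprived medium before RNA was taken. There is 1 group of 3 libraries, given as biological replicates of this single line, with no treated group, so the data show levels and the spread between libraries but no response. The labelled cell type was checked against its markers. All 8 luminal epithelium genes (EPCAM, CDH1, KRT8, KRT18, KRT19, ESR1, GATA3 and FOXA1) were at 30.1 TPM or above, and the 5 immune and 4 endothelium markers each averaged 0.230 TPM or below. Of 5 fibroblast markers COL1A2, DCN and LUM had 0 counts in all libraries, which leaves room for up to 3 counts in each, and COL1A1 stood at 10.5 TPM. The deposited counts summed to between 26473939 and 30745412 per library.

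Lysine methylation on histone tails is read as a mark of the state of a gene. H3K4 methylation lies at active promoters and enhancers, H3K36 and H3K79 methylation lie over transcribed gene bodies, and H3K27 and H3K9 methylation mark silenced chromatin. Writers carry a SET domain, except DOT1L, and use S-adenosylmethionine, while erasers are either the flavin-dependent KDM1 enzymes or the Jumonji enzymes, which need iron and oxygen. In breast epithelium several of them, such as KMT2C, KMT2D, KDM4B and KDM1A, are known as coregulators of the estrogen receptor.

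All 45 genes were expressed. Each had at least 291 counts in every library, and the threshold for detection was 10. Levels were computed as TPM, which scales counts by gene length and by the total of the library. They ran from 9.52 TPM for SUV39H1 to 151 TPM for SMYD2, with 2 genes at 100 TPM or above, 41 between 10 and 100 TPM and 2 below 10 TPM. The median over the members was 36.3 ± 1.199 TPM (SD of the median over libraries, n = 3), next to 8.07 TPM over 18985 protein-coding entries and 25.8 TPM over the 12786 of those that were detected. The lowest member, SUV39H1, still lay above 51.6% of protein-coding entries. As a description, 26 histone acetylation enzymes had a median of 38.8 TPM and 26 chromatin remodelers one of 43.8 TPM. Writer-side members had a median of 35.7 ± 2.38 TPM and erasers of 39.2 ± 2.45 TPM. In replicates 1, 2 and 3 the writer median was 36.8, 37.0 and 32.8 TPM. The eraser median was 40.9, 40.7 and 36.5 TPM, so that erasers were higher within each library with the deposited lengths. In counts, without division by length, the order was reversed, with a median of 2605 for writers and 1837 for erasers. It was also reversed with the longest coding transcripts in GENCODE as lengths.

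**Figure D1:**
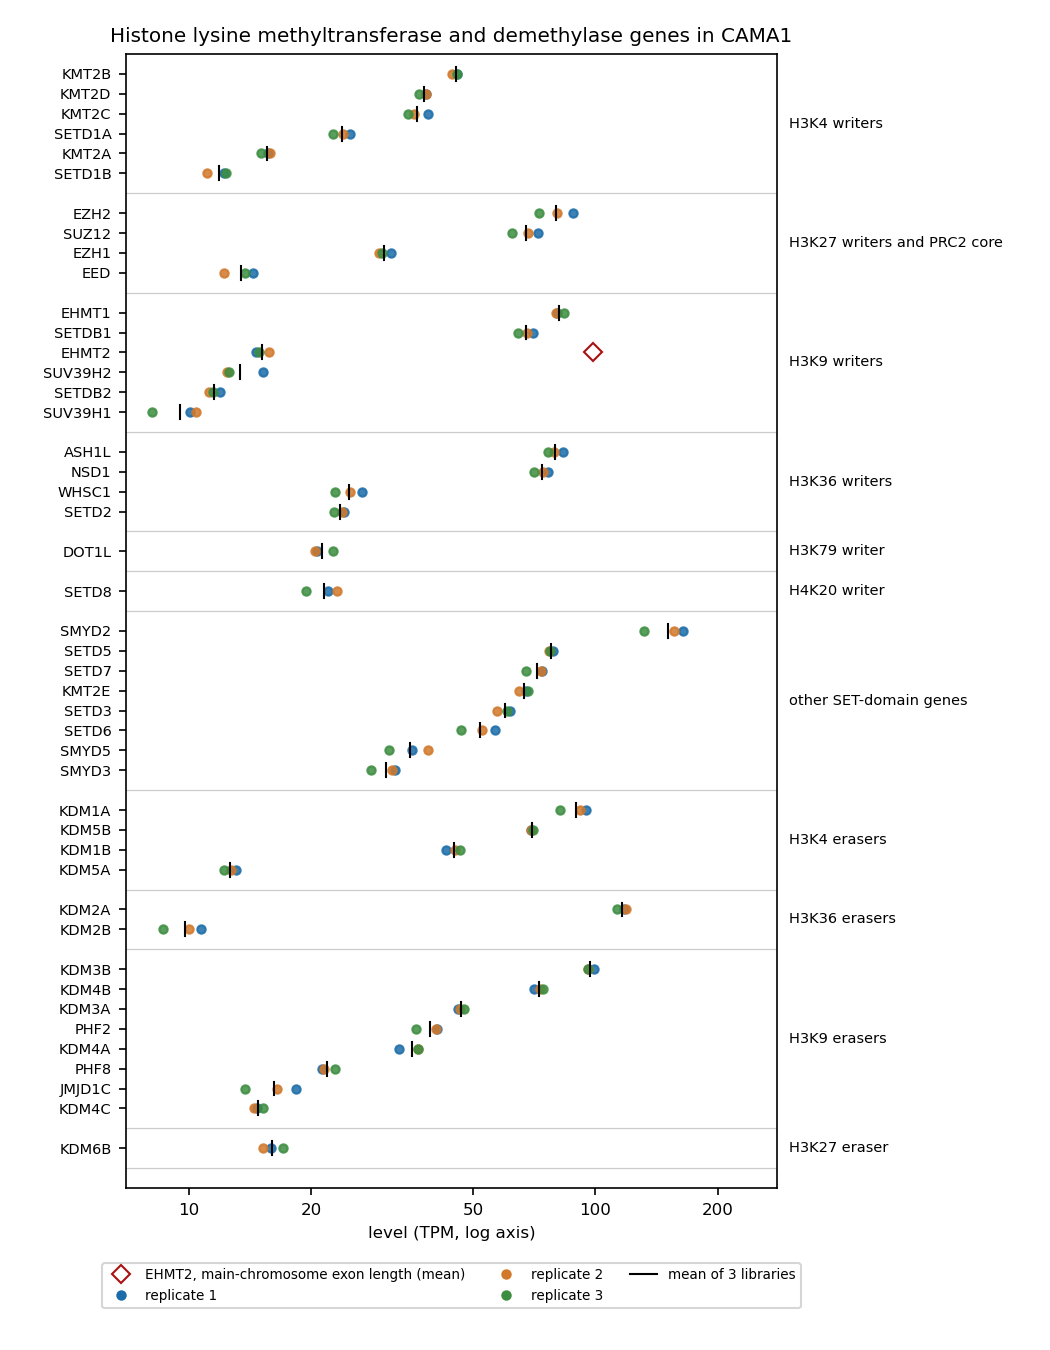
Level of each of the 45 genes in TPM (log axis) in replicates 1, 2 and 3 (points) with the mean of the 3 libraries (bar), grouped by the residue that the enzyme acts on. SMYD2 and KDM2A lie above 100 TPM, and SUV39H1 and KDM2B below 10 TPM. The open diamond gives EHMT2 at 98.6 TPM, computed with main-chromosome exon lengths for all entries, whereas the points use the deposited lengths.

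Ordered by level, the genes formed a near-continuous series. Of the 44 pairs of neighbours in that order, 32 overlapped in their 3 library values and 12 did not. The separate steps included those from SMYD2 to KDM2A, from KDM2A to KDM3B, from EZH1 to WHSC1 and from DOT1L to JMJD1C. Without division by length, as counts scaled by the library total only (CPM), the first ranks went to NSD1, ASH1L, KDM2A and KMT2D, whereas SMYD2 fell from rank 1 to rank 20. Across the 45 genes the Spearman correlation of level in TPM with CPM was 0.75, and that of CPM with length 0.52. Genes are not independent replicates, and CPM and TPM share the same counts.

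Among the H3K4 writers, the catalytic subunits of the COMPASS-type complexes, KMT2B was the most abundant. It measured 45.8, 44.5 and 45.8 TPM in replicates 1, 2 and 3. Its relative KMT2A, the gene rearranged in some leukemias, stood at 15.7, 15.9 and 15.0 TPM. KMT2B was above KMT2A in every library, 2.92-fold on average. The enhancer-linked pair KMT2C and KMT2D lay close together, with KMT2D at 38.3, 38.3 and 36.9 TPM. KMT2C measured 38.7, 35.8 and 34.5 TPM, so that it was higher than KMT2D in replicate 1 and lower in the other 2. Of the promoter-linked pair, SETD1A stood at 24.9, 24.0 and 22.6 TPM and SETD1B at 12.2, 11.1 and 12.3 TPM, with no overlap between them.

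The core of the Polycomb repressive complex PRC2, which writes H3K27 methylation, was expressed with EZH2 as the main catalytic transcript. EZH2 measured 88.0, 80.3 and 72.5 TPM, highest in replicate 1 and lowest in replicate 3. EZH1, the alternative catalytic subunit that is typical of resting cells, stood at 31.4, 29.4 and 29.8 TPM. EZH2 exceeded EZH1 by 1.41 ± 0.11 on the log2 scale (SD, n = 3), or 2.65-fold, and the library values of the 2 genes did not overlap. SUZ12, a scaffold subunit without which the complex is unstable, reached 72.3, 68.4 and 62.3 TPM and followed the same order over libraries as EZH2. EED, the subunit that binds the methylated tail, was lower at 14.4, 12.2 and 13.8 TPM, on 308 to 409 counts. SUZ12 counts held fractions, as did those of KMT2C, WHSC1 and SUV39H2. These 4 genes are not among the members that share exon bases with another entry. How the fractions arose was not given in the sources used here, and the levels of these 4 genes are uncertain to that extent.

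With the deposited lengths the H3K9 writers were led by EHMT1 and SETDB1. EHMT2 was the highest of them with main-chromosome lengths, at 98.6 TPM, and with the longest GENCODE coding transcripts, at 108 TPM. EHMT1, which forms a heterodimer with EHMT2, stood at 80.7, 79.9 and 83.8 TPM. EHMT2 measured 14.6, 15.8 and 14.9 TPM with the deposited length. That length, 28320 bases, sums its exons over 7 sequences, chromosome 6 and 6 alternate contigs of the same region, whereas its exons on chromosome 6 (31879760 to 31897707 on hg38, minus strand) cover 4204 bases, 6.74 times less. With main-chromosome exon lengths for all entries, EHMT2 stood at 95.7, 103 and 97.0 TPM and lay above EHMT1 rather than below it. It then ranked 1947 instead of 8133 among protein-coding entries. The log2 ratio of EHMT2 over EHMT1 was −2.43 ± 0.08 with the deposited length and 0.32 ± 0.08 with the chromosome 6 length (SD, n = 3). EHMT2 was the only member placed on several sequences. Its counts were close to those of EHMT1, at 4105, 4459 and 4941 against 4311, 4301 and 5311, and all were whole numbers.

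SETDB1, which silences repeats and zinc finger genes with TRIM28, stood at 70.4, 67.8 and 64.4 TPM. Its relative SETDB2 measured 11.9, 11.2 and 11.4 TPM, so that SETDB1 was 5.86-fold higher. The heterochromatin enzymes SUV39H1 and SUV39H2 were both low. SUV39H1 had 10.0, 10.4 and 8.11 TPM on 291 to 317 counts, and SUV39H2 15.2, 12.4 and 12.5 TPM. SUV39H1 was below SUV39H2 in every library, by 0.49 ± 0.21 on the log2 scale.

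Of the H3K36 writers, ASH1L and NSD1 were high and SETD2 was low. ASH1L measured 83.3, 79.3 and 76.7 TPM and NSD1 76.5, 74.1 and 70.8 TPM. These long genes also gave the most reads of all members, up to 10599 counts for ASH1L and 10860 for NSD1 in a library. SETD2, the enzyme for H3K36 trimethylation, stood at 24.1, 23.8 and 22.7 TPM. WHSC1, now named NSD2 and known for its translocation in myeloma, measured 26.7, 24.9 and 22.8 TPM. Its deposited length of 17077 bases is the union of all its exons. With the longest coding transcript in GENCODE, 8568 bases, its mean level was 51.4 ± 3.91 TPM and the log2 ratio of NSD1 over WHSC1 went from 1.58 ± 0.06 to 0.60 ± 0.06, without a change of sign. DOT1L, the H3K79 writer, had 20.7, 20.5 and 22.6 TPM, and SETD8, now named KMT5A and the writer of H4K20 monomethylation, 21.9, 23.1 and 19.4 TPM.

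The SET-domain genes whose products act mainly on other proteins, or have no settled activity on histones, included the highest of all members. SMYD2, which methylates p53 and other proteins, measured 164, 156 and 132 TPM on 2608 to 2740 counts. SMYD3 stood at 32.2, 31.6 and 28.0 TPM, so that SMYD2 exceeded it 4.91-fold, with 3 of 3 libraries apart. SETD5 followed SMYD2 at 78.5, 77.1 and 77.6 TPM. SETD7, KMT2E, SETD3, SETD6 and SMYD5 lay between 35.1 and 71.7 TPM. SETD3, which methylates actin, averaged 59.9 ± 2.25 TPM. SETD6, at 52.0 ± 4.92 TPM, shares 58.6% of its exon bases with CNOT1 on the opposite strand. CNOT1 had a mean of 10391 counts against 1623 for SETD6. The kit was stranded, but the strand setting of the counting was not given in the sources used here, so the level of SETD6 is uncertain. SETD6 counts were whole in all libraries. DOT1L, JMJD1C, ASH1L, KMT2A, KDM4A and KDM5A also share exon bases with an antisense neighbor, at most 8.89% of them.

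On the eraser side, KDM1A and KDM5B were the highest of the 4 H3K4 demethylase members with the deposited lengths. KDM1A, also known as LSD1, measured 95.1, 91.6 and 81.9 TPM and its relative KDM1B 43.0, 45.2 and 46.4 TPM. The 2 genes moved in opposite order over the libraries, KDM1A lowest and KDM1B highest in replicate 3, but did not overlap. KDM5B, first described as a gene raised in breast cancer, was nearly constant at 69.6, 69.4 and 70.2 TPM. KDM5A had 13.1, 12.7 and 12.2 TPM, so that KDM5B was 5.52-fold higher. With the longest GENCODE coding transcript, KDM5B averaged 44.8 ± 0.329 TPM, since that transcript has 10341 bases against a deposited length of 6383, and the log2 ratio over KDM5A was 1.76 in place of 2.46. On that length KDM5B lay below KDM1B, at 47.4 ± 1.89 TPM.

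KDM2A and KDM2B, CXXC-domain demethylases of H3K36, were farthest apart of the 16 pairs. KDM2A measured 118, 119 and 113 TPM. It lies on chromosome 11 (67119269 to 67258079). KDM2B stood at 10.7, 10.0 and 8.65 TPM on 575 to 609 counts. KDM2A exceeded KDM2B 11.9-fold, with a log2 ratio of 3.58 ± 0.13 (SD, n = 3).

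The H3K9 erasers were led by KDM3B and KDM4B. KDM3B measured 99.5, 96.1 and 95.8 TPM, and the hypoxia-responsive KDM3A 46.0, 46.4 and 47.5 TPM. JMJD1C, a relative of both with disputed activity, had 18.3, 16.5 and 13.8 TPM, lowest in replicate 3. KDM4B, an estrogen receptor partner that acts on H3K9 and, as the other KDM4 enzymes can, on H3K36, stood at 70.8, 73.3 and 74.3 TPM. KDM4A was lower at 32.8, 36.7 and 36.5 TPM. KDM4C had 14.7, 14.5 and 15.2 TPM with its deposited length, and a mean of 24.4 TPM with its longest GENCODE coding transcript. The order KDM4B, KDM4A, KDM4C held in all 3 libraries. PHF2, at 40.9, 40.7 and 36.2 TPM, was above PHF8, at 21.2, 21.4 and 22.8 TPM. KDM6B, the H3K27 demethylase of the list, stood at 15.9, 15.2 and 17.0 TPM.

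**Figure D2:**
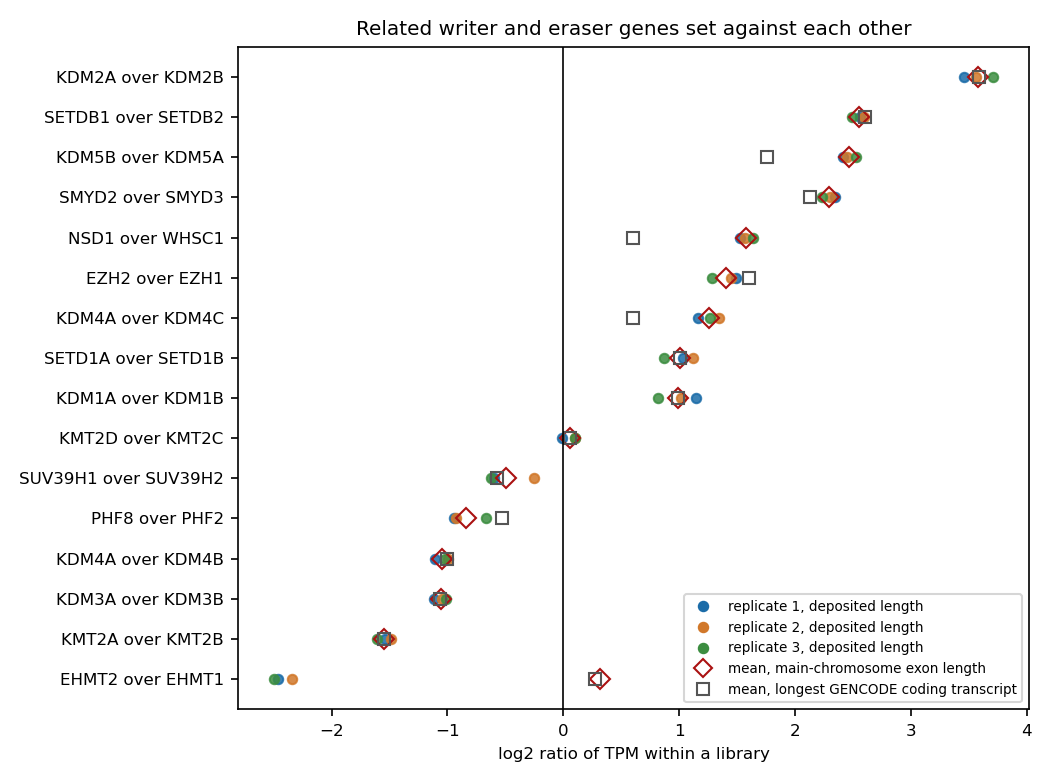
Log2 ratio of TPM between related genes within each library (filled points, deposited lengths), with the mean ratio from main-chromosome exon lengths (diamonds) and from the longest GENCODE coding transcripts (squares). KDM2A over KDM2B is highest at 3.58, and EHMT2 over EHMT1 changes from −2.43 to 0.32 with the length.

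In all, 16 pairs of related genes and 4 pairs of writer and eraser sums were compared within libraries. Of the 20 ratios, 19 had the same sign in 3 of 3 libraries, the exception being KMT2D over KMT2C at 0.06 ± 0.07. A two-sided exact permutation test that flips signs gave those 19 a p of 0.25, the smallest that 3 libraries can give, and KMT2D over KMT2C one of 0.5. After Benjamini-Hochberg adjustment the 19 stood at an adjusted permutation p of 0.263, so no ratio could pass 0.05. With the deposited lengths 12 of the 16 gene pairs were at least 2-fold apart. Of these, EHMT2 and EHMT1 were 1.25-fold apart with main-chromosome lengths, and NSD1 over WHSC1 and KDM4A over KDM4C were both at a log2 ratio of 0.60 with GENCODE transcripts.

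Summed by residue, transcripts of H3K27 writers stood farthest above those of their eraser. EZH1 and EZH2 together had 119, 110 and 102 TPM against KDM6B, a log2 ratio of 2.78 ± 0.17 (SD, n = 3). With KDM6A, the other H3K27 demethylase gene, added to KDM6B the ratio was 1.501 ± 0.12. The 6 H3K4 writers summed to 171 ± 4.30 TPM and the 4 H3K4 erasers to 217 ± 5.35 TPM, a log2 ratio of −0.34 ± 0.02. On CPM, with no division by length, that ratio was 1.11. KDM5C, an H3K4 demethylase gene outside the list at 73.8 ± 1.199 TPM, was not counted among the erasers in either case.

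The 6 H3K9 writers summed to 198.5 ± 3.98 TPM and the 8 erasers to 344 ± 1.70 TPM, a log2 ratio of −0.79 ± 0.03. With exon lengths on the main chromosome, which raise EHMT2, the sums were 277 ± 4.09 and 334 ± 1.80 TPM and the ratio −0.27 ± 0.01. With those lengths and without KDM4A, KDM4B and KDM4C among the erasers, a combination chosen after seeing the data, the ratio turned to 0.37 ± 0.02. The 4 H3K36 writers summed to 202 ± 8.78 TPM against 126 ± 3.87 TPM for KDM2A and KDM2B. That ratio, 0.68 ± 0.03, became −0.30 ± 0.07 when KDM4A, KDM4B and KDM4C were counted as H3K36 erasers too. The eraser side alone was widened there. WHSC1L1, an H3K36 writer gene outside the list at 89.3 ± 1.83 TPM, was not added to the writers. A sum of transcripts is not a measure of enzyme activity.

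**Figure D3:**
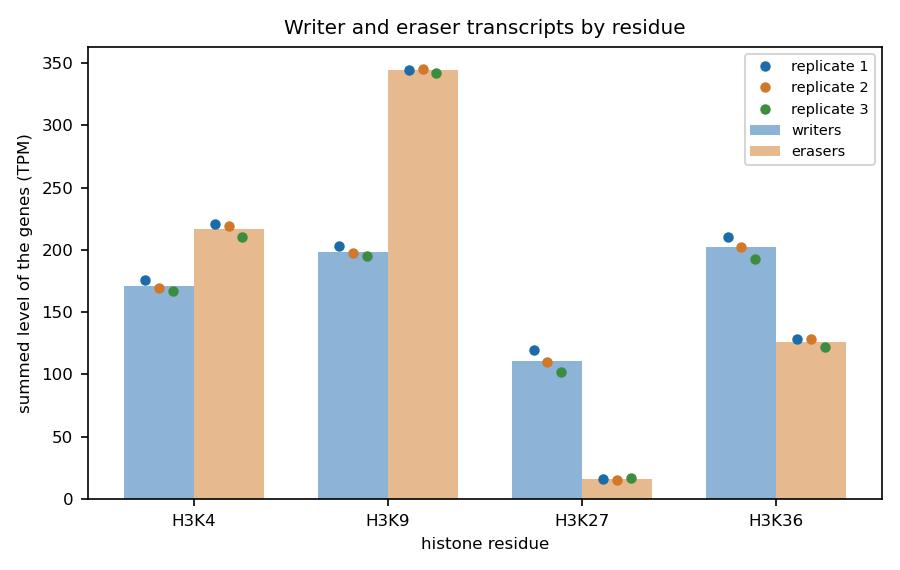
Summed TPM of writer and eraser genes for each residue with deposited lengths, as the mean of 3 libraries (bars) and each library (points). Only members of the list were summed, so related genes outside it, such as WHSC1L1 (H3K36 writer) and KDM5C (H3K4 eraser), are left out. Eraser transcripts are above writer transcripts for H3K4 (not on CPM) and H3K9 (not with main-chromosome lengths and without the KDM4 genes), and below for H3K27 and H3K36 (not with the KDM4 genes added to the erasers).

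Between the 3 libraries the members differed little in size. The largest ratio of highest to lowest level was 1.33, for JMJD1C, and 8 of 45 members passed 1.2, next to 33.7% of detected protein-coding entries. The median coefficient of variation was 4.52% over members and 6.93% over all genes tested, on CPM scaled with TMM factors. Neither comparison was matched for counts, which had a median of 2203 for members and 952 for detected protein-coding entries. With edgeR, 25 of 45 members varied beyond Poisson sampling (adjusted p under 0.05 over all genes tested), where 41.6% of 14453 genes did. The share of genes called was higher at higher counts. Of the 7 members with 10 to 30 CPM 3 were called, against 38.6% of all genes in that range. Of the 20 members with 30 to 100 CPM 12 were called, against 50.5% of all genes in that range, and of the 15 with 100 to 300 CPM 9 were called, against 68.8%. Of the 3 members above 300 CPM 1 was called, against 87% of all genes there. Against the trended negative binomial dispersion, edgeR called 0 members (0 also at an unadjusted p under 0.05), where it called 1.31% of all genes. That dispersion was estimated from these same 3 libraries. The test therefore asks only whether a gene exceeds the spread of genes at similar counts in them.

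Replicate 3 stood apart from the other 2 across all genes, and the members shared in this: without it 8.08% of all genes were called, against 32.6% without replicate 1 and 37.3% without replicate 2. Of the 25 members called, 14 were lowest in replicate 3, which is 14 of 45 members against 18.7% of all genes tested. Another 9 of 45 members were highest there, against 19.4% of all genes. Among called genes alone, 2700 of 6017 were lowest in replicate 3 and 2797 of 6017 highest, against 14 and 9 of the 25 called members. Without replicate 3, 3 of 45 members were called, near the share of all genes: EHMT2, KDM4A and KMT2C. JMJD1C had 63.5, 57.8 and 49.7 CPM in replicates 1, 2 and 3 (edgeR adjusted p = 2.53e-10). SMYD2 had 102, 98.6 and 85.8 CPM (edgeR adjusted p = 6.82e-10). EZH2 had 99.0, 91.6 and 84.99 CPM (edgeR adjusted p = 1.72e-06), falling in the same order. WHSC1, SUZ12 and KDM1A were lowest in replicate 3 as well, by 1.12-, 1.12- and 1.11-fold against their highest library. The 9 that were highest in replicate 3 were KDM4A, EHMT1, DOT1L, KDM4B, KMT2E, KDM6B, KDM1B, PHF8 and SETD1B. DOT1L, for example, had 57.0, 57.2 and 64.8 CPM (edgeR adjusted p = 0.000369).

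Genes of proliferation were also lowest in replicate 3. A list of 10 such genes, added after the values were seen, summed to 581, 560 and 409 TPM in replicates 1, 2 and 3. Of these 10 genes, 9 varied beyond Poisson sampling and were lowest in replicate 3, against 18.7% of all genes tested. The exception was MCM4, which was lowest there without passing the test. Their part in the lower level of EZH2, SUZ12 and the other members in that library was not tested.

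**Figure D4:**
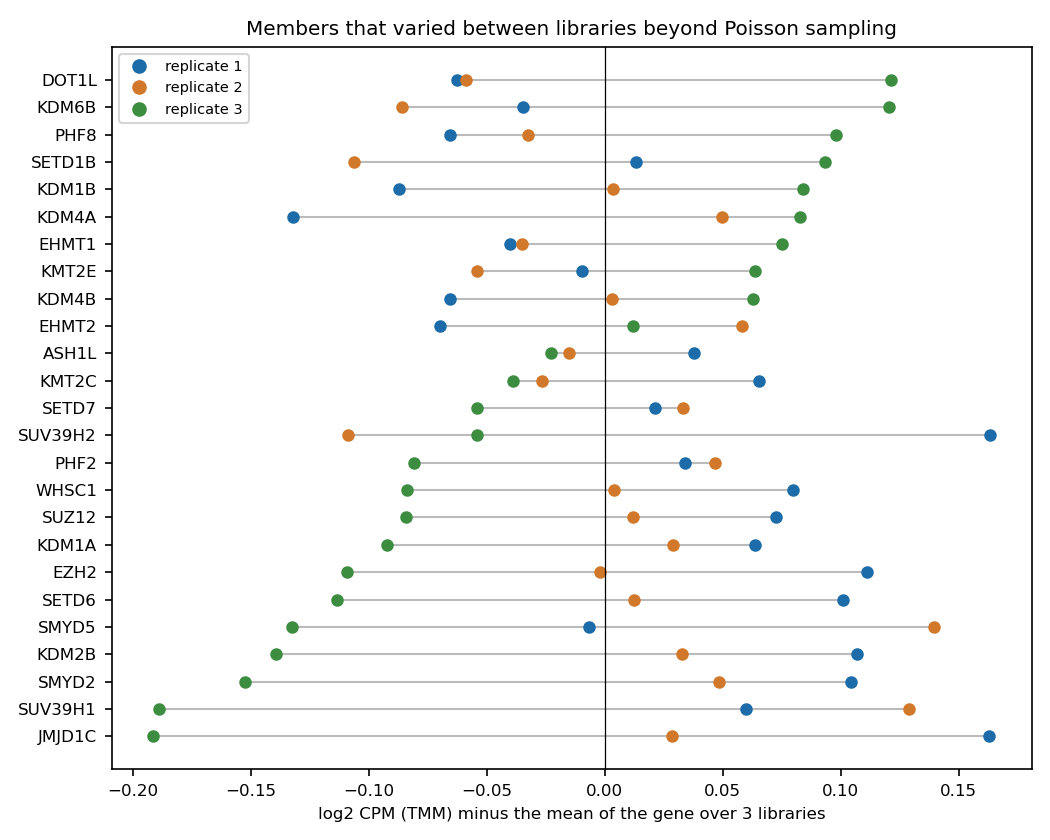
The 25 members called as varying beyond Poisson sampling, each library's log2 CPM (TMM) minus the gene's mean over the 3 libraries. In 14 genes, from ASH1L down to JMJD1C with SUV39H2 apart, replicate 3 is lowest, and in 9 it is highest.

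E2F factors are known regulators of replication genes and of EZH2, and the promoters of the members were searched for letters typical of an E2F site. The motifs were chosen after the values were seen and were TTTCCCGC, TTTCGCGC, TTTGCCGC and TTTGGCGC on both strands, in the 250 bases before each RefSeq start (GRCh38.p14), where 43 of 45 members matched an entry. A match was present for 5 of 43 members, or 11.6%, and for 4.60% of 15843 protein-coding genes with such a window. The 5 were SUZ12, WHSC1, JMJD1C, EZH1 and KDM1B, of which the first 3 were called and lowest in replicate 3, as 14 of all 45 members were, and the last was called and highest there. Called or not, 22 of 45 members were lowest in replicate 3, or 48.9% against 39.8% of all genes tested. None of the windows of EZH2 held these letters. Counted over the same 250 bases, the median number of CpG dinucleotides was 24.5 per window for members and 16 for protein-coding genes. All of the motifs hold a CpG, and the shares of genes with a match were not adjusted for this difference. The stretches around the match in these 5 genes, 1 of 2 matches in KDM1B, are printed 5′ to 3′ along the gene, with the motif in capitals. They lie at chr17:31936783-31936860 (plus strand, SUZ12), chr4:1871281-1871358 (plus strand, WHSC1), chr10:63466151-63466227 (minus strand, JMJD1C), chr6:18155172-18155248 (plus strand, KDM1B) and chr17:42745113-42745190 (minus strand, EZH1).
SUZ12: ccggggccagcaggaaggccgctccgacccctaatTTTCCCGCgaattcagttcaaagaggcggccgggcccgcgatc
WHSC1: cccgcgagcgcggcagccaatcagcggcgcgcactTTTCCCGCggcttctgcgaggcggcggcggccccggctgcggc
JMJD1C: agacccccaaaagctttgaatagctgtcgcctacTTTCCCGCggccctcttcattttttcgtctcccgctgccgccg
KDM1B: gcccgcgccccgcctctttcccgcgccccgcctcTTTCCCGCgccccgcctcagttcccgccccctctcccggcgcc
EZH1: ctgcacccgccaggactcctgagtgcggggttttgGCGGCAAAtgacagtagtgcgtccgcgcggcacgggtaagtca
SUZ12, WHSC1, JMJD1C and KDM1B hold the same letters, 189, 77, 216 and 216 bases before their starts, and EZH1 holds TTTGCCGC on the other strand. In 36 of 62 member windows the bases just after the start lay in a GENCODE transcript of the gene. None of the windows with a match passed this check, so these distances rest on the RefSeq starts alone. A match is a description of the sequence and was not tested as a binding site.

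Genes for partners of these enzymes, for methyl donor supply and for related enzymes were measured as well. Of 56 genes in 7 lists 53 were detected, and the median over all 56 was 41.4 TPM. Among the 12 partners of the KMT2 and SETD1 complexes, ASH2L stood at 150 ± 8.14 TPM, DPY30 at 126 ± 4.08 TPM and WDR5 at 66.9 ± 3.66 TPM, all shared subunits. Of the 7 PRC2 partners the histone chaperone RBBP7 was highest at 224 ± 5.40 TPM, then RBBP4 at 62.4 ± 2.47 TPM and MTF2 at 55.9 ± 3.18 TPM. Of the H3K9 partners and readers, the heterochromatin protein gene CBX3 stood at 340 ± 24.7 TPM, the corepressor TRIM28 at 249.8 ± 7.67 TPM and CBX1 at 199 ± 5.001 TPM. Partners of KDM1A and KDM1B included GLYR1 at 149 ± 5.32 TPM, HDAC1 at 110 ± 2.22 TPM and RCOR1 at 63.8 ± 1.65 TPM, while GFI1, a factor that recruits KDM1A in blood cells, had 13, 5 and 16 counts. MLLT1, a reader that works with DOT1L, differed between libraries at 81.1, 86.0 and 116 TPM. MLLT6 stood at 33.4 ± 0.364 TPM and MLLT10 at 28.4 ± 0.588 TPM. The deposited lengths of MLLT6 and of PHF1, a PRC2 partner, include alternate contigs like that of EHMT2, and with main-chromosome lengths they stood at 64.9 and 66.8 TPM.

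The enzymes that supply the methyl donor were abundant, with MAT2A, which makes S-adenosylmethionine, at 334 ± 15.7 TPM, AHCY at 164 ± 3.97 TPM and MAT2B at 97.0 ± 2.67 TPM. Of 14 other enzymes of the same class, SUV420H1, an H4K20 writer, led at 128 ± 5.04 TPM, followed by WHSC1L1, an H3K36 writer gene near FGFR1, at 89.3 ± 1.83 TPM and the H3K4 demethylase KDM5C at 73.8 ± 1.199 TPM. The muscle gene SMYD1 had 0 counts in each library, which allows up to 3, and the germ-cell gene PRDM9 had 1, 3 and 1. Of the 53 partner and related genes tested with edgeR, 21 varied beyond Poisson sampling, or 39.6% against 41.6% of all genes. Of the 53, 13 were called and lowest in replicate 3, against 18.7% of all genes, and 6 called and highest there, against 19.4%.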

How the data were processed

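Poly-A RNA of the 3 libraries was sequenced after stranded library preparation, per the labels' protocols. The authors deposited expected counts per gene, of which some are fractional, with exon positions and a gene length. TopHat, Subread and featureCounts with hg38 are named in the submitters' processing notes. Their versions, strand setting and handling of reads with several matches are not given in the sources used here. As tested on the files, the deposited length equalled the merged exons over all sequences in 26485 of 26485 entries.

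TPM was computed from the deposited counts and lengths. Ratios used log2(TPM + 0.01) within a library and an exact sign-flip test. For variation between libraries, counts were rounded and fitted in edgeR 4.0.16 (R 4.3.3) with TMM factors of 1.01, 1.00 and 0.990, the low-count filter and an intercept only. The residual deviance was tested against a chi-square distribution with Benjamini-Hochberg adjustment over all genes. The test was tried on simulated Poisson counts with known changes. These lack the further spread between replicates of the real libraries, so the trial does not show how the test performs on them. Alternatives used DESeq2 1.42.0 size factors, library totals, no filter, a negative binomial fit, other lengths (GENCODE release 29), CPM, a pseudocount of 1 TPM and each library left out.

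Gene types came from RefSeq, which 23758 entries matched by their own symbol and 1536 by an older one. Members and lists were chosen with earlier results of these data known. By the rule for named genes all 45 members are accounted for by group, with values per library for the 2 highest and the lowest of each larger group, all of smaller groups and both genes of each pair. Members over that were added. Of each partner list the 3 highest genes and those under 10 counts in a library are named. MCM4, PHF1 and CNOT1 were chosen after their values were seen. Values after ± are SDs over the 3 libraries, and floors for genes without counts cover counting error only.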

Additional observations from a re-analysis of the deposited data

How the results depend on the processing

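The direction of all 20 ratios was kept with a pseudocount of 1 TPM and without replicate 1, 2 or 3. EHMT2 over EHMT1 reversed from −2.43 to 0.32 with exon lengths on the main chromosome and to 0.27 with the longest GENCODE coding transcript, an alternative chosen after seeing the data; the change in length is its construction. H3K4 writers over erasers reversed to 1.11 on CPM. H3K36 writers over erasers reversed to −0.30 with the KDM4 genes added to the erasers but WHSC1L1 not added to the writers. In each of these settings that covered all ratios (main-chromosome length, GENCODE length and CPM) 19 of 20 kept their direction, and the H3K9 ratio was −0.16 without the KDM4 genes. That value rests on the deposited length of EHMT2, and with main-chromosome lengths and without the KDM4 genes, a combination chosen after seeing the data, the H3K9 ratio reversed to 0.37. The median of the members moved from 36.3 to 39.3 TPM with GENCODE lengths. The number of members varying beyond Poisson sampling, 25 where 41.6% of all genes did, was 26 with DESeq2 size factors (41.7% of all genes), 28 with library totals (42%), 25 without the filter (28.6%) and 0 with the negative binomial (1.31%). With a library left out it lay between 3 and 25: 20 without replicate 1 (32.6%), 25 without replicate 2 (37.3%) and 3 without replicate 3 (8.08%); the cause was not tested. All 45 members were detected under every count minimum. No paired analysis was possible because there is 1 group. Depth did not limit detection of the members, but 3 libraries cannot give a ratio a p below 0.25.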
